A study of Mus musculus with 12 samples.

Results

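The sex difference of the submandibular gland (SMG) of mice without *Pou2f3* was described from 6 of the 12 libraries of the study, 3 from knockout males (KOM) and 3 from knockout females (KOF). The 6 libraries were chosen by their genotype and sex labels, and the genes are the 17268 on autosomes among the 17893 that were tested. The study examined what the gland loses with tuft cells (TCs), rare chemosensory cells that need the transcription factor Pou2f3, and sequenced whole SMGs from 4 groups of 3 mice aged 8 weeks. The knockouts, males and females alike, were of the strain C57BL/6J-Pou2f3em1Cbwi/J, which lacks *Pou2f3* in every organ, so that the gland and the rest of the body cannot be told apart as the source of a difference. The wild types were C57BL/6J males (WTM) and females (WTF), which share no library with the knockout comparison and give the sex difference with *Pou2f3* present. The question was which differences between male and female ducts and acini remained, shrank or grew in the knockout glands.

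The mouse SMG is one of the most sexually dimorphic organs outside the reproductive tract. At puberty androgens turn part of the striated ducts of the male into granular convoluted tubules, whose cells store growth factors, renin and a family of serine proteases, the glandular kallikreins, and release them into saliva. The gland of the female keeps fewer and smaller tubules and proportionally more acini, the end pieces that make mucin-like proteins and the salt and water of saliva.

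The kallikreins show the contrast most plainly, because genes of the same cluster on chromosome 7 had opposite sex differences in knockout glands. *Klk1b26* and *Klk1b27* were higher in KOM, while *Klk1*, the true tissue kallikrein, was higher in KOF. Their start regions from RefSeq (GRCm38.p6, plus strand, 250 bases before to 50 after the annotated start) are printed for that reason. The window of *Klk1b26* is chr7:44012428-44012727, that of *Klk1b27* is chr7:44052040-44052339 and that of *Klk1* is chr7:44225110-44225409. Capitals mark runs of at least 12 bases that also occur in the window of *Klk1* or, for *Klk1*, in that of *Klk1b26*.

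Klk1b26: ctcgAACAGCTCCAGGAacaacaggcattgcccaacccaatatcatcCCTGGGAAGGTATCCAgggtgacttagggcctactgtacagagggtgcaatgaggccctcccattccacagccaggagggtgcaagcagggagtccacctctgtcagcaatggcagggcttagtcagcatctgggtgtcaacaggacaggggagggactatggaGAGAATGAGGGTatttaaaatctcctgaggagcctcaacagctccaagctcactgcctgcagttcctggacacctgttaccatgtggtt

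Klk1b27: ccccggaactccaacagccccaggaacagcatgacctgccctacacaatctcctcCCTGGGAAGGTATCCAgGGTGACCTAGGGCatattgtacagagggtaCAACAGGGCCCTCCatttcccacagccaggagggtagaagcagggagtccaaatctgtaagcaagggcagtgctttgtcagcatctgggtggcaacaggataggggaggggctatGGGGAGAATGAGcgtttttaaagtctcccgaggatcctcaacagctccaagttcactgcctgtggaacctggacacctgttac

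Klk1: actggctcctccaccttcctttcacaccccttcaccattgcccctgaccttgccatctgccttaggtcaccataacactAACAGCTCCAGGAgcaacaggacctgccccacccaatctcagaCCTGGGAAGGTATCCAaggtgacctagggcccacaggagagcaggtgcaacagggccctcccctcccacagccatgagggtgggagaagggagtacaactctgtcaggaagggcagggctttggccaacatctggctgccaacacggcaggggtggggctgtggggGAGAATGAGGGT

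Shared runs covered 41 bases in *Klk1b26*, 55 in *Klk1b27* and 41 in *Klk1*, and in all of these windows the run CCTGGGAAGGTATCCA was among them. Aligned, the windows of *Klk1* and *Klk1b26* were 80.4% identical and those of *Klk1b26* and *Klk1b27* 85.3%. Over the 78 pairs of *Klk1b* genes identity ran from 77.5% to 97.7% with a median of 83.6%, and the 13 *Klk1b* genes matched *Klk1* by 76.3% to 85.7% with a median of 79.6%. Identity was taken over aligned columns only, 253 to 302 for pairs of *Klk1b* genes and 205 to 260 for pairs with *Klk1*. The letters AGAACA or TGTTCT, each the other's reverse complement and a core of steroid receptor sites, were present in 2 of the 14 kallikrein windows (14.29%) and in 6233 of all 32851 windows of this length (18.97%).

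Depth was similar in all libraries, with 47031917 to 67881902 counts each. The factors that scaled the libraries (TMM) were apart by sex in both genotypes. They were 0.90 to 1.03 in KOF, 1.11 to 1.25 in KOM, 0.63 to 0.76 in WTF and 1.04 to 1.45 in WTM. A gene without a count could still lie at up to 0.0442 to 0.0638 CPM (3 counts of the total, counting error only). *Pou2f3* was near 0 in wild types too, with at most 10 counts in any library, and had 0 counts in each KOF and 0, 3 and 1 in KOM, so its loss could not be checked at this depth. The sex labels held, since *Xist* had 37429 to 52649 counts in KOF and at most 2 in KOM, and *Ddx3y* had 0 in KOF and 1761 to 2196 in KOM. The SMG lies against the sublingual and parotid glands, and genes of those glands set some libraries apart. *Muc19*, the large mucin of sublingual mucous cells, had normalized counts of 498, 413 and 283335 in KOF 1, 2 and 3, against 5958, 104 and 664 in KOM, and *Dcpp3*, another sublingual gene, had 27012 in KOF 3. *Amy1*, the amylase of parotid acini, had 696, 53158 and 723 in KOM against at most 408 in KOF, and *Bpifa2*, also called parotid secretory protein, had 117438 in KOM 2 against 107 and 5.45 in the other KOM and 3236 in KOF 3. In wild types, WTM 3 carried both sets, with 427285 for *Muc19* and 29260 for *Bpifa2*. WTF 2 held less of both, 10072 and 1356, beside 577 and 458 for *Muc19* in the other WTF. Counts of calls, list members, named genes and medians by gene type were therefore also computed without KOF 3, KOM 2 and WTM 3 together. This alternative was chosen after seeing the data. It keeps WTF 2 and also KOM 1, with 10072 and 5958 for *Muc19*.

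**Figure D1:**
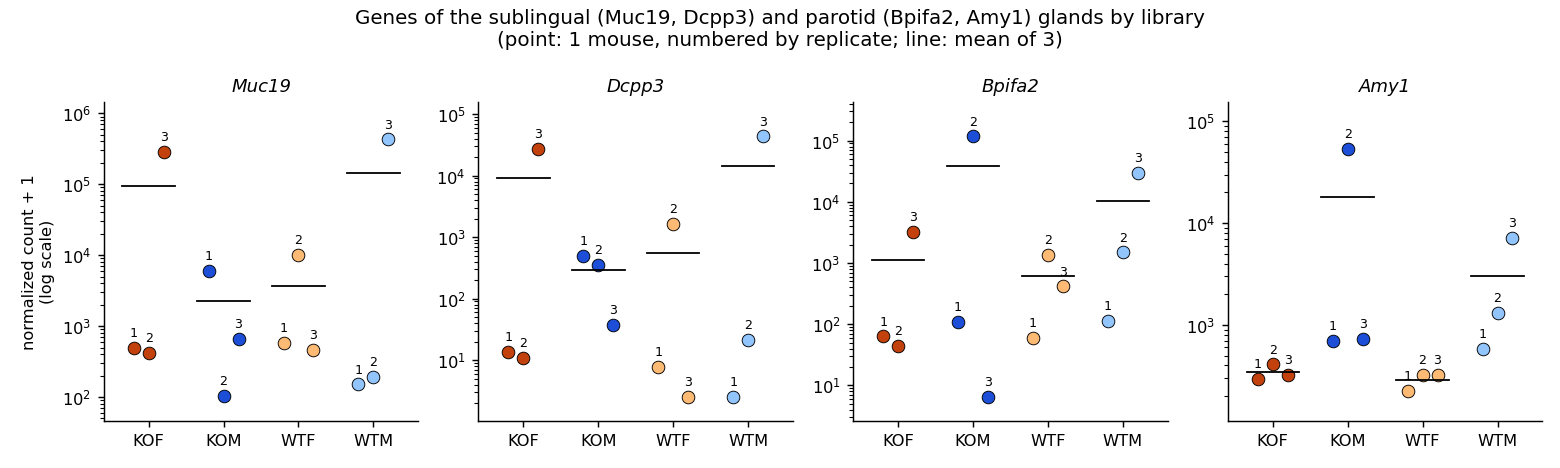
Normalized counts plus 1 (log axis) of 2 sublingual genes (Muc19, Dcpp3) and 2 parotid genes (Bpifa2, Amy1) in each of the 12 libraries, numbered by replicate; the line is the mean of 3. KOF 3 and WTM 3 stand above the others for Muc19 and Dcpp3, and KOM 2 and then WTM 3 for Bpifa2 and Amy1.

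Knockout glands remained strongly dimorphic. Sex differences are given as log2 fold changes of males over females, in knockouts unless wild types are named, so that a negative value means higher in females. By the quasi-likelihood test of edgeR, adjusted over all genes by Benjamini-Hochberg, 7529 autosomal genes (43.6% of those tested) differed between KOM and KOF at an adjusted p under 0.05, against 36.3% between WTM and WTF. With a log2 fold change beyond 1 as well, 1300 genes (7.53%) were higher in KOM and 1661 (9.62%) were higher in KOF, against 1543 (8.94%) higher in WTM and 890 (5.15%) higher in WTF. Of these calls 43.9% were male-biased in knockouts and 63.4% in wild types, but the knockout share was 51.3% without KOF 1, 50.9% without KOF 2 and 52.4% without KOF 3. Upper-quartile scaling, which moves the median sex difference of all autosomal genes in the knockout by −0.16 on the log2 scale, gave 971 and 2245 knockout genes, or 30.2% male-biased. Without KOF 3, KOM 2 and WTM 3 the knockout counts were 1053 and 936, or 52.9% male-biased, and 978 of the 1300 and 848 of the 1661 genes were still called.

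Both genotypes called 1120 genes past both thresholds in the same direction, which is 37.8% of the knockout calls and 46.0% of the wild-type calls, 751 of them higher in males and 369 higher in females. Of the 1543 genes called higher in WTM, 911 (59.0%) were also higher in KOM at an adjusted p under 0.05, and their median log2 fold change was 1.73 in wild types and 1.04 in knockouts. Of the 890 called higher in WTF, 538 (60.4%) were also higher in KOF, with medians of −1.37 and −0.89. Looked at from the knockout side, 993 of the 1300 genes higher in KOM (76.4%) were higher in WTM, but only 495 of the 1661 higher in KOF (29.8%) were higher in WTF, with medians of −1.49 in knockouts and −0.32 in wild types. A median nearer 0 on the side that did not choose the genes is built into such a comparison, so the test of the difference between the sex contrasts is given further on. Across all autosomal genes the log2 sex differences of the 2 genotypes correlated with r = 0.42, a description over genes, which are not independent replicates.

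**Figure D2:**
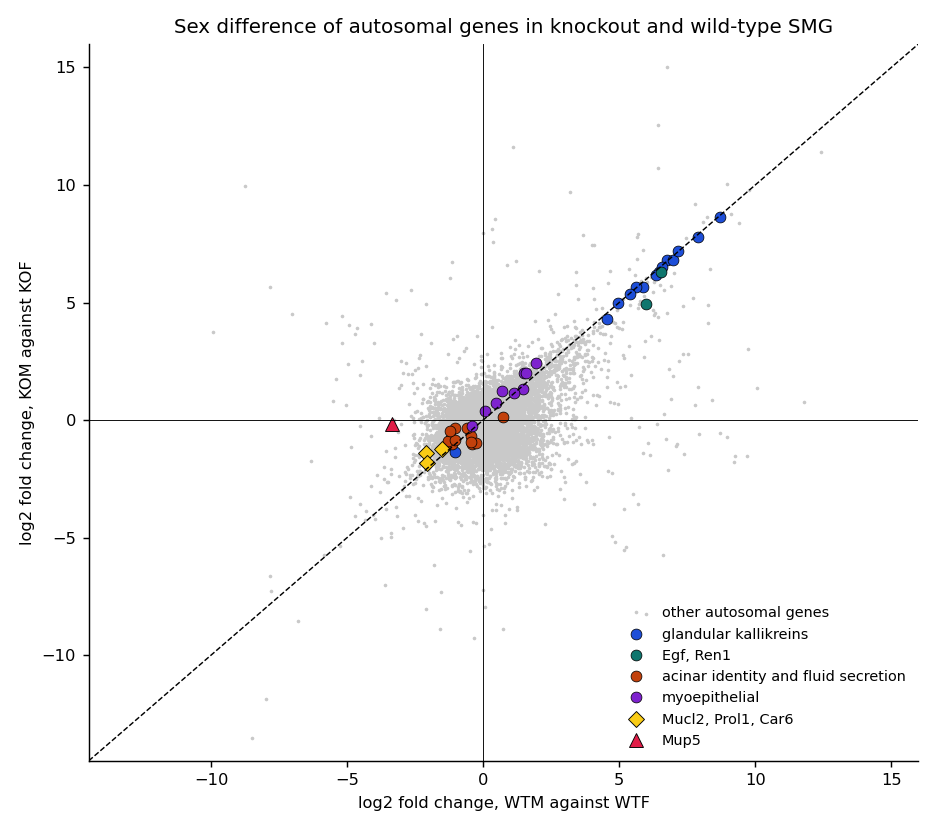
Log2 fold change of male against female in wild-type (x axis) and knockout SMGs (y axis) for the 17268 autosomal genes tested, with gene lists in colour; on the dashed line both differences are equal. The kallikreins with Egf and Ren1 lie near the line at the upper right, with Klk1 among the acinar genes left of 0, and Mup5 lies far off the line.

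The autosomal genes tested included 13685 protein-coding genes, 1758 long noncoding RNAs, 1183 TEC entries (transcribed loci that Gencode has not yet placed in a class) and 367 processed pseudogenes. Of the 1661 genes higher in KOF, 806 were protein-coding, 365 were long noncoding RNAs, 335 were TEC entries and 95 were processed pseudogenes; of the 1300 higher in KOM the corresponding counts were 1148, 102, 16 and 19. The median log2 sex difference was 0.08 for protein-coding genes in knockouts, −0.44 for long noncoding RNAs, −0.84 for TEC entries and −0.69 for processed pseudogenes. In wild types the corresponding medians were 0.02, 0.31, 0.27 and 0.66. The 3 noncoding medians kept these signs in both genotypes under each of the 4 other scalings and without KOF 3, KOM 2 and WTM 3, whereas the protein-coding median of the knockout was −0.08 under upper-quartile scaling and that of the wild type was −0.06 to −0.01 under the 4 other scalings. Counts in long noncoding and TEC genes, per 100 counts in protein-coding genes, were 2.63 to 2.93 in KOF and 2.15 to 2.72 in KOM, against 0.72 to 1.59 in WTF and 1.69 to 2.88 in WTM; the part of RNA quality or library make-up in these medians was not tested. The labels name polyA RNA and the methods of the study ribosomal RNA depletion, which differ in how far they keep RNAs without a poly(A) tail.

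*Egf* and *Ren1*, products of the granular convoluted tubules, remained far higher in males without *Pou2f3*. Epidermal growth factor, *Egf* (ENSMUSG00000028017.8, chromosome 3, 129470410 to 129549093 on GRCm39), had normalized counts of 40328, 53295 and 22978 in KOF and of 2686399, 2977696 and 3529173 in KOM. The groups did not overlap, as for 27.4% of autosomal genes with all KOM above all KOF (27.5% the other way), and the means were 38867 ± 15211 and 3064423 ± 428028 (SD, n = 3 each), a log2 fold change of 6.30 (SE 0.40, adjusted p = 2.52e-07). Renin, *Ren1*, the protease that starts the angiotensin cascade and is stored in tubule granules, had 112, 114 and 48.3 against 2063, 3147 and 3340, a log2 fold change of 4.94 (SE 0.37, adjusted p = 8.58e-07). In both genes all 3 KOM were above all 3 KOF, and KOF 3 was the lowest of all 6 libraries. The same log2 differences in wild types were 6.55 (adjusted p = 1.4e-07) for *Egf* and 5.98 (adjusted p = 3.79e-07) for *Ren1*.

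No change in size was detected for these genes between genotypes. The knockout difference of *Egf* minus that of the wild type was −0.24, with a 95% interval of −1.21 to 0.72 and an adjusted p of 0.712. For *Ren1* it was −1.04, with a 95% interval of −2.20 to 0.13 and an adjusted p of 0.167. These intervals do not show that the differences were equal. KOF lay above WTF for *Ren1*, 48.3 to 114 against 24.1 to 48, while KOM and WTM overlapped. Without KOF 3, KOM 2 and WTM 3 the knockout difference was 6.06 (adjusted p = 8.79e-05) for *Egf* and 4.58 (adjusted p = 8.79e-05) for *Ren1*, and the difference of *Ren1* between genotypes was −1.54 (unadjusted p = 0.0175, adjusted p = 0.13). In bulk tissue, fewer cells of a type and less RNA per cell cannot be told apart.

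All 13 *Klk1b* genes on the list were higher in KOM and all 13 were higher in WTM, against 23.3% and 20.6% of autosomal genes tested. These genes lie between *Klk1b8* and *Klk1* in one cluster on chromosome 7, and several of their proteases process growth factors or cut kininogen. *Klk1b26* (ENSMUSG00000053719.11, chromosome 7, 43661592 to 43666392) had 40109, 58412 and 21203 in KOF and 1365247, 1657181 and 1850225 in KOM, a log2 fold change of 5.35 (SE 0.40, adjusted p = 8.58e-07). Its difference between genotypes was −0.05, with a 95% interval of −1.07 to 0.97 and an adjusted p of 0.956. The steepest of the family was *Klk1b27*, with 206, 463 and 172 in KOF and 68425, 123221 and 148833 in KOM, a log2 fold change of 8.66 (SE 0.57, adjusted p = 3.28e-07). The flattest was *Klk1b5*, with 3481, 5668 and 2562 in KOF and 88449, 68956 and 72518 in KOM and a log2 fold change of 4.29 (SE 0.32, adjusted p = 7.66e-07). In wild types the family ran from 4.57 for *Klk1b5* to 8.69 for *Klk1b27*, and no member's sex difference was called different between genotypes.

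*Klk1* went the other way. It had 324369, 446915 and 243363 in KOF and 165218, 131529 and 94481 in KOM, so that each KOM was below each KOF, with a log2 fold change of −1.37 (SE 0.28, adjusted p = 0.00179), and −1.04 (adjusted p = 0.0113) in wild types. Summed over the 14 kallikreins, the normalized level was 288233 to 568609 in KOF and 3805234 to 5550063 in KOM, with WTF at 271538 to 512203 and WTM at 3065469 to 5730194. The family is a limit on single values, since 19.68% to 57.19% of the 31-base words in a member's transcripts also occur in another member, and the estimated counts divide shared reads between them.

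Proteins that travel in saliva as signals or their carriers split by family. *Crisp1* and *Crisp3*, cysteine-rich secretory proteins under androgen control, were higher in KOM. *Crisp3* had 29917, 65419 and 24876 in KOF and 1235099, 1435348 and 1575252 in KOM, a log2 fold change of 5.14 (SE 0.45, adjusted p = 2.45e-06), and *Crisp1* had 56.6, 126 and 65.7 and 14993, 38684 and 45161, a log2 fold change of 8.62 (SE 0.59, adjusted p = 4.25e-07). Wild-type differences were 5.13 and 8.23, and a difference between genotypes was called for neither, with 95% intervals of −1.14 to 1.16 and −0.99 to 1.79. The secretoglobins, subunits of the androgen-binding protein of saliva, were higher in KOF. *Scgb2b27* had 1022486, 1227018 and 1126605 in KOF and 559915, 416521 and 471131 in KOM, a log2 fold change of −1.22 (SE 0.23, adjusted p = 0.00108); *Scgb1b27* changed by −1.34 (adjusted p = 0.000925) and *Scgb2b26* by −1.48 (adjusted p = 0.000324). Without KOF 3, KOM 2 and WTM 3 *Scgb2b27* was −1.12 (adjusted p = 0.0511).

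Major urinary protein 5, *Mup5* (ENSMUSG00000058523.3, chromosome 4, 61749556 to 61753470), a lipocalin that binds volatile pheromones, had a large sex difference in wild types and no detectable one in knockouts. In knockouts it had 4828, 5039 and 3729 in KOF and 4287, 4348 and 3442 in KOM, overlapping groups with a log2 fold change of −0.17 (SE 0.25, adjusted p = 0.613). In wild types it had 37927, 31368 and 39955 in WTF and 3054, 5330 and 2268 in WTM, with no overlap and a log2 fold change of −3.36 (adjusted p = 1.32e-06). The difference between the sex contrasts was 3.19 (SE 0.36, adjusted p = 0.0025), and the levels show where it lay: KOF were near the males of both genotypes, and WTF stood alone. Without KOF 3, KOM 2 and WTM 3 the difference was 2.77 (adjusted p = 0.0515). *Mup4* had 0, 0 and 104 in KOF and 17.7, 5.62 and 11.8 in KOM, where KOF 3 alone made the female mean and the sexes overlapped; without KOF 3, KOM 2 and WTM 3, with 0 counts left in KOF, it was called higher in KOM (adjusted p = 0.0116), and without KOF 3 alone it was not (adjusted p = 0.0706). *Smr3a*, a submaxillary gland androgen-regulated peptide, was 0 in 4 of the 6 knockout libraries and 48611 in KOM 2, the library high in parotid genes, so that its call (adjusted p = 0.0146) rested on that library and the log2 fold change was −2.36 (adjusted p = 0.776) without KOF 3, KOM 2 and WTM 3. *Smr2*, of the same family, had 1.15, 1.94 and 1.24 in KOF and 16.8, 6.56 and 9.99 in KOM, a ratio of 7.51 with a 95% exact counting interval of 2.69 to 29 from 4 counts in KOF and 36 in KOM. Of the 9 members tested, 4 were higher in KOM, *Smr3a* among them, 3 were higher in KOF and 2 were not called, beside 23.3% and 20.3% of autosomal genes, and *Scgb1b2* and *Scgb2b2* were too low to be tested.

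**Figure D3:**
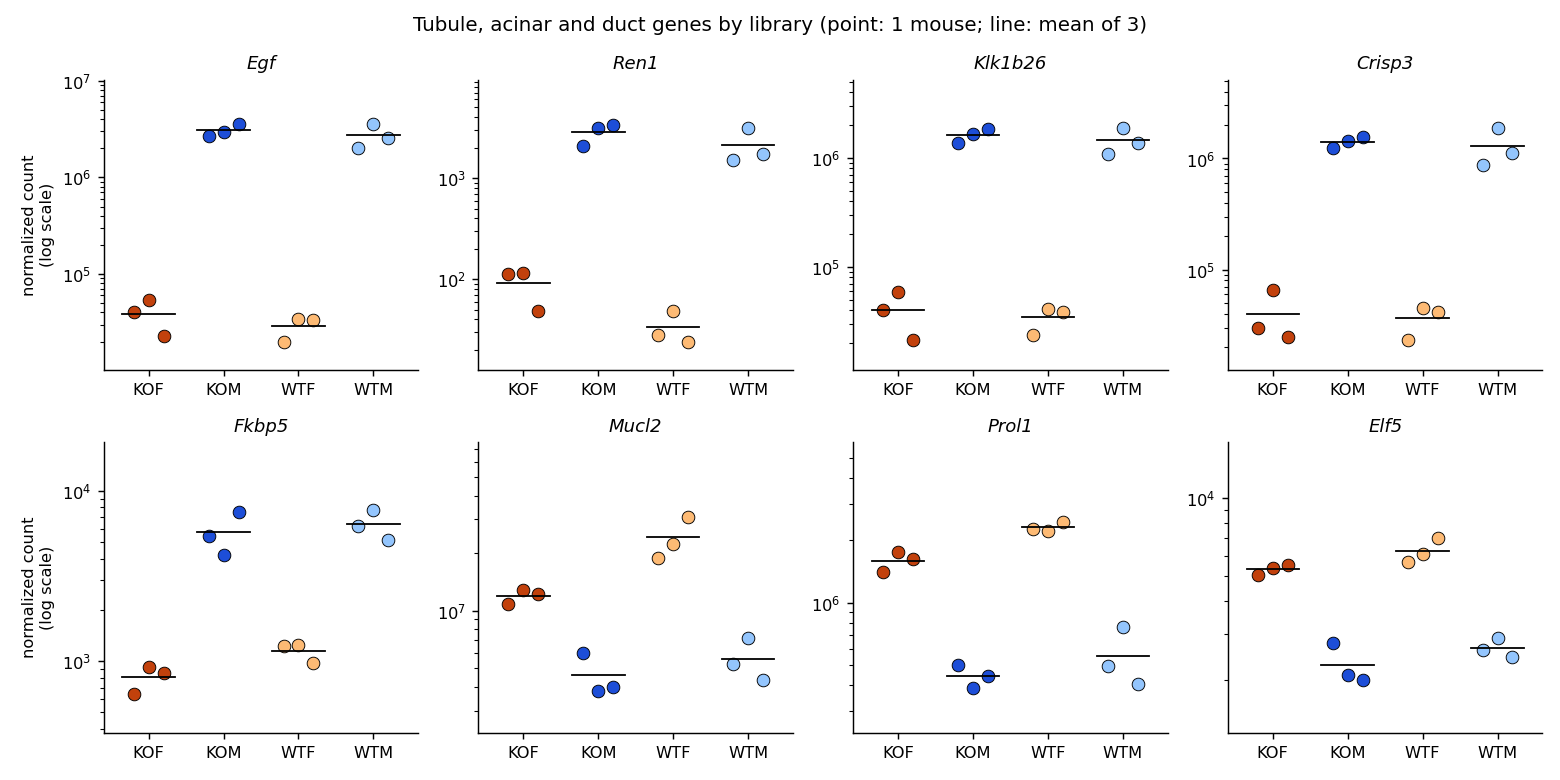
Normalized counts (log axis) of 8 tubule, acinar and duct genes in each of the 12 libraries, grouped as KOF, KOM, WTF and WTM; each point is 1 mouse and the line is the mean of 3. In all 8 genes the knockout males and females are apart, males higher for Egf, Ren1, Klk1b26, Crisp3 and Fkbp5 and females higher for Mucl2, Prol1 and Elf5.

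Of the 12 acinar secretory proteins on the list 4 were called higher in KOF, 2 were called higher in KOM and 6 were not called, beside 20.3% and 23.3% of autosomal genes. *Mucl2* (ENSMUSG00000036925.9, chromosome 15, 103926121 to 103929578), a mucin-like protein of SMG acini, had 10865043, 12877758 and 12256603 in KOF and 5979881, 3823790 and 3975869 in KOM. The groups did not overlap and the log2 fold change was −1.39 (SE 0.27, adjusted p = 0.00113), against −2.10 (adjusted p = 6.35e-05) in wild types. *Prol1*, also called Muc10, the main SMG mucin, had 1398665, 1766230 and 1624207 in KOF and 502604, 386684 and 440560 in KOM, a log2 fold change of −1.85 (SE 0.23, adjusted p = 4.38e-05) against −2.07. *Car6*, the carbonic anhydrase secreted into saliva, had 815134, 601670 and 799582 in KOF and 420459, 253923 and 271747 in KOM, a log2 fold change of −1.23 (SE 0.24, adjusted p = 0.00115) against −1.53. Lactoperoxidase, *Lpo*, was 26502, 19295 and 21614 in KOF and 19349, 11913 and 12572 in KOM, where the highest KOM exceeded the lowest KOF, with −0.62 (adjusted p = 0.021). *Pip*, prolactin-induced protein, was 251436, 286726 and 277321 in KOF and 235012, 161210 and 175023 in KOM, −0.51 (adjusted p = 0.0905), and was called in wild types at −1.27 (adjusted p = 0.00103). The call of *Lpo* was lost without KOF 1, KOF 3, KOM 2 or KOM 3 (adjusted p = 0.0511 to 0.118).

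The wild-type difference was the larger one in each of these 5 genes, but the difference between genotypes was called in none of these 5: it was 0.72, with a 95% interval of −0.08 to 1.52 and an adjusted p of 0.165 for *Mucl2*, and 0.76 (adjusted p = 0.103) for *Pip*. The summed level of the 12 secreted proteins on the list was 13357916 to 15552670 in KOF and 4821160 to 7165388 in KOM, and 22876457 to 35759690 in WTF and 5869272 to 8880965 in WTM. *Mucl2* alone made up 80.0% to 82.8% of that sum in KOF and 79.3% to 83.5% in KOM, and the other 11 summed to 2492873 to 3067769 and 901472 to 1185507. The 2 called higher in KOM were *Amy1* and *Dnase1*, high in KOM 2 with 53158 and 9019; without KOF 3, KOM 2 and WTM 3 they were 1.01 (adjusted p = 0.056) and −0.11 (adjusted p = 0.888). *Dcpp1*, *Dcpp2*, *Dcpp3*, *Bpifa2* and *Muc19* owed their highest levels to 1 or 2 libraries and were not called. Leaving out KOF 3, KOM 2 and WTM 3 also took the call from *Mucl2*, −1.25 (adjusted p = 0.126), which was not called by limma on the deposited normalized values either, −0.94 (adjusted p = 0.392), and from *Car6*, −1.03 (adjusted p = 0.0556), but not from *Prol1*, −1.74 (adjusted p = 0.00733).

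Genes of acinar identity and fluid secretion were mostly higher in KOF, 9 of the 12 tested with 3 not called, against 20.3% of autosomal genes higher in KOF at an adjusted p under 0.05. Their median log2 fold change was −0.80 in knockouts and −0.82 in wild types, beside −0.02 and 0.07 over all autosomal genes. The water channel *Aqp5* had 9789, 7858 and 9657 in KOF and 6630, 4590 and 4799 in KOM, a log2 fold change of −0.77 (SE 0.16, adjusted p = 0.00232). The chloride loader *Slc12a2* had 62876, 80891 and 74776 and 47076, 29472 and 31169, −1.02 (adjusted p = 0.00415). *Bhlha15* (Mist1), a transcription factor of secretory cells, had 17721, 13654 and 15125 and 11074, 7318 and 7696, −0.83 (adjusted p = 0.00125). All 3 genes separated the sexes, and in each KOM 1 was the highest male. The muscarinic receptors that start fluid secretion, *Chrm3* and *Chrm1*, were −0.94 (adjusted p = 0.000168) and −0.96 (adjusted p = 0.00372), the chloride channel *Ano1* was −0.68 (adjusted p = 0.0112), and the beta-adrenergic receptor *Adrb1* was −0.35 (adjusted p = 0.0137). The potassium channel *Kcnn4* was −0.89 (adjusted p = 0.000505). The call of *Ano1* was lost without KOF 1, KOM 2 or KOM 3 (adjusted p = 0.0542 to 0.0697) and that of *Adrb1* without KOF 1 or KOM 2 (adjusted p = 0.0513 to 0.173).

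The sex difference itself differed between genotypes in 3 of the 12, a share close to the 25.8% of all autosomal genes. *Kcnma1*, a calcium-activated potassium channel, had 5981, 5023 and 6205 in KOF and 3458, 2622 and 2287 in KOM, a knockout log2 fold change of −1.04 (adjusted p = 0.00011) against −0.43 (adjusted p = 0.034), a difference of −0.61 (SE 0.20, adjusted p = 0.0437). *Xbp1*, a transcription factor that widens the secretory pathway, shrank instead. It had 8753, 8423 and 9526 in KOF and 7491, 6940 and 6947 in KOM, −0.32 (adjusted p = 0.0905), against 13840 to 20775 in WTF and 7984 to 9641 in WTM, −1.04 (adjusted p = 0.000129), a difference of 0.72 (SE 0.21, adjusted p = 0.0247). *Slc4a2*, an anion exchanger, shrank too and was 0.12 (adjusted p = 0.44) in knockouts and 0.73 (adjusted p = 0.000392) in wild types, a difference of −0.61 (SE 0.17, adjusted p = 0.0203). The 3 differences without KOF 3, KOM 2 and WTM 3 were −0.53, 0.77 and −0.56, with adjusted p of 0.238, 0.129 and 0.155. The call of *Kcnma1* was lost without any one library except KOF 2 and KOM 1 (adjusted p = 0.0541 to 0.125), under RLE scaling (adjusted p = 0.0554) and with library sizes without the 20 most abundant genes (adjusted p = 0.052), that of *Slc4a2* without KOF 1, KOF 3, KOM 2, KOM 3, WTF 3 or WTM 1 (adjusted p = 0.0502 to 0.0684) and that of *Xbp1* without WTM 1 or WTM 3 (adjusted p = 0.0548 to 0.0665). Over both acinar lists, 13 members were called higher in KOF and 6 without KOF 3, KOM 2 and WTM 3: *Prol1*, *Kcnn4*, *Kcnma1*, *Chrm3*, *Adrb1* and *Bhlha15*. For *Aqp5*, *Slc12a2*, *Ano1* and *Chrm1*, not called there, the log2 fold changes were −0.62 for *Aqp5* beside −0.77 with all libraries, −0.87 for *Slc12a2* beside −1.02, −0.65 for *Ano1* beside −0.68 and −0.74 for *Chrm1* beside −0.96.

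**Figure D4:**
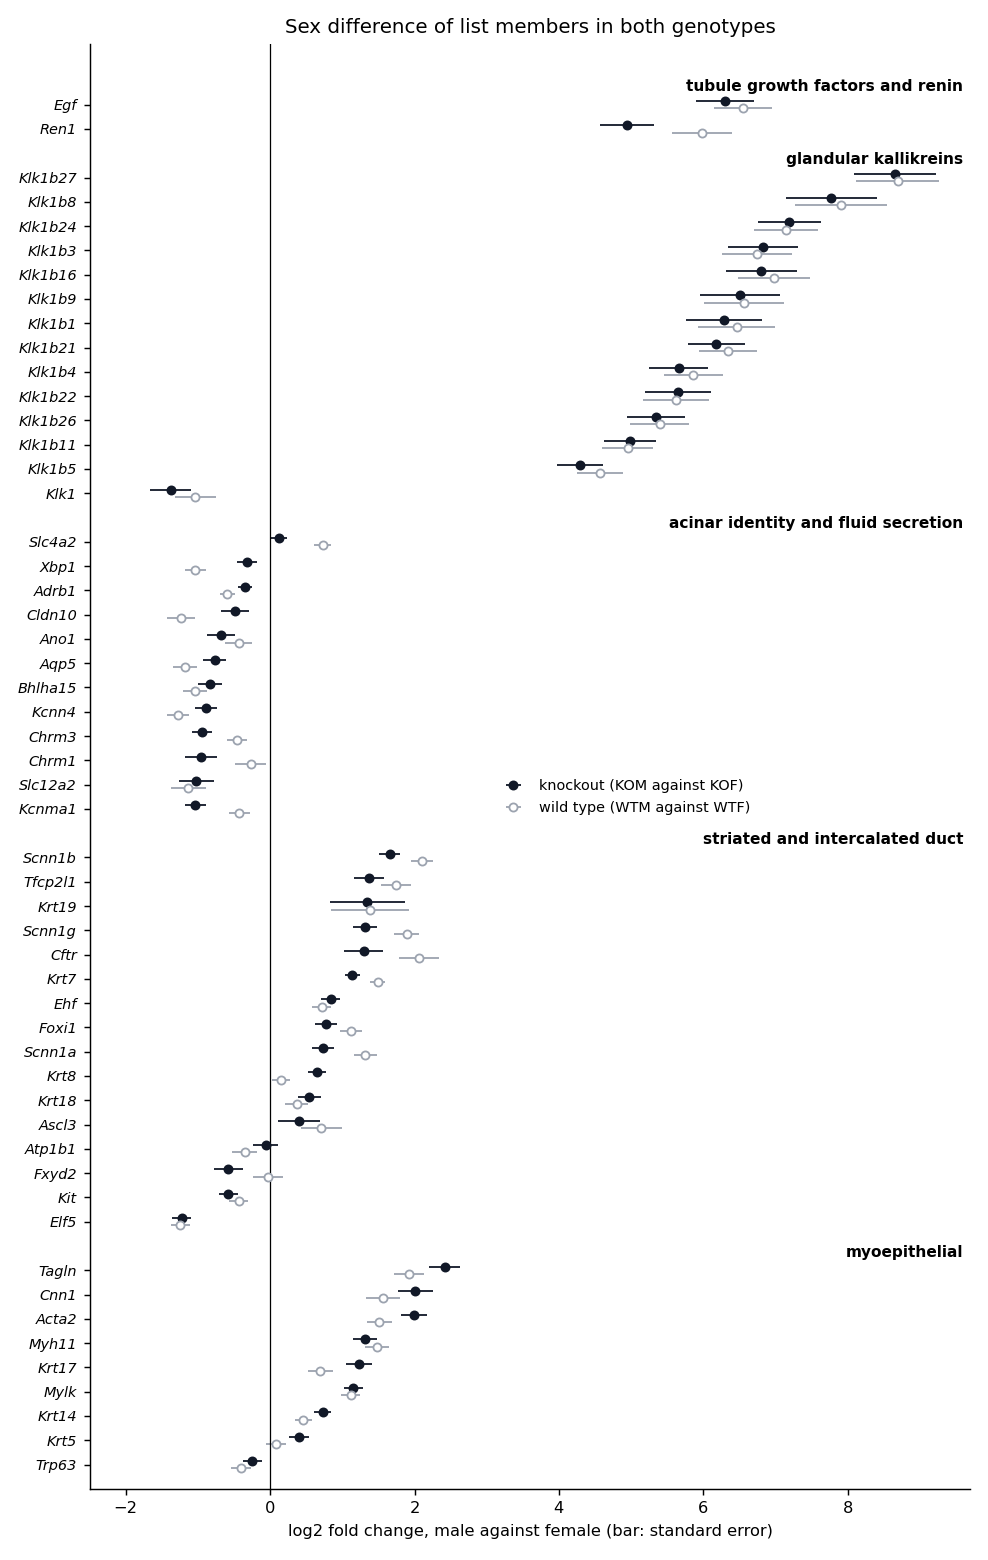
Log2 fold change of male against female with its standard error for members of 5 gene lists, knockout in black and wild type in white; Smgc, which lies off the scale, is left out. Egf, Ren1 and the 13 Klk1b genes lie right of 4 in both genotypes, the acinar genes lie mostly left of 0, and the myoepithelial genes lie mostly right of 0.

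Duct genes other than the tubule products were also dimorphic. Of 17 tested, 11 were called higher in KOM, 4 higher in KOF and 2 were not called, beside 23.3% and 20.3% of autosomal genes, with a median log2 fold change of 0.74 in knockouts and 0.71 in wild types. Of these, 9 of the 11 and 2 of the 4 were still called without KOF 3, KOM 2 and WTM 3. *Krt19* lost its call without any one of 6 libraries (adjusted p = 0.0607 to 0.27), and *Krt18* without KOM 1 (adjusted p = 0.0672). The epithelial sodium channel subunits, which take salt back from saliva, were higher in KOM: *Scnn1b* had 2014, 2370 and 1685 in KOF and 6956, 5908 and 6263 in KOM, a log2 fold change of 1.66 (SE 0.15, adjusted p = 2.91e-06), *Scnn1g* was 1.32 (adjusted p = 5e-05) and *Scnn1a* was 0.74 (adjusted p = 0.00186). The chloride channel *Cftr* had 1135, 1113 and 1164 in KOF and 4317, 2055 and 2024 in KOM, 1.30 (adjusted p = 0.00195), with KOM 1 above the other males. *Tfcp2l1*, a transcription factor of duct cells, was 1.37 (adjusted p = 0.000194), *Foxi1*, the regulator of ionocytes, was 0.77 (adjusted p = 0.00139), and the keratins *Krt7* and *Krt8* were 1.14 (adjusted p = 2.82e-06) and 0.65 (adjusted p = 0.00104). For all 4 channel genes the wild-type difference was the larger one, 2.10, 1.89, 1.32 and 2.06 in that order, but no gene of this list was called for a difference between genotypes.

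The 4 duct genes higher in KOF were *Smgc*, *Elf5*, *Kit* and *Fxyd2*. *Smgc*, a secreted protein of neonatal acini that persists in the intercalated ducts of adult females, had 65146, 91594 and 55597 in KOF and 13.1, 0.937 and 3.63 in KOM, a log2 fold change of −13.53 (SE 2.39, adjusted p = 0.000639). In wild types it had 23925, 193568 and 210638 in WTF and 0.769, 0.821 and 1178 in WTM. *Smgc* lies inside the *Muc19* gene, so that reads of one may be counted for the other in libraries rich in *Muc19*, such as KOF 3 and WTM 3, and the part of such reads was not tested. *Elf5*, a transcription factor of secretory epithelium, had 5055, 5377 and 5542 in KOF and 2757, 2085 and 1989 in KOM, a log2 fold change of −1.23 (SE 0.13, adjusted p = 1.47e-05) against −1.24 in wild types. The receptor *Kit* was −0.58 (adjusted p = 0.0031), and the sodium pump modulator *Fxyd2* was −0.58 (adjusted p = 0.0381) with overlapping groups. *Fxyd2* lost its call without any one of 6 libraries, KOF 1, KOF 2, KOM 2, KOM 3, WTF 2 or WTF 3 (adjusted p = 0.0628 to 0.168).

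Contractile genes of the myoepithelial cells, which squeeze the acini, were higher in KOM. Of 9 tested, 8 were called higher in KOM, 0 higher in KOF and *Trp63* was not called, beside 23.3% and 20.3% of autosomal genes, with a list median of 1.23 in knockouts and 1.12 in wild types. Of the 8, 7 were still called without KOF 3, KOM 2 and WTM 3. Smooth muscle actin, *Acta2*, had 2452, 2147 and 2025 in KOF and 10879, 7098 and 8386 in KOM, a log2 fold change of 1.99 (SE 0.18, adjusted p = 3.04e-06). *Tagln* and *Cnn1*, actin-binding proteins of contractile cells, were 2.42 (adjusted p = 2.6e-06) and 2.01 (adjusted p = 3.23e-05), and *Myh11*, their myosin, was 1.31 (adjusted p = 4.06e-05). The keratins *Krt14*, 0.73 (adjusted p = 0.000357), and *Krt5*, 0.40 (adjusted p = 0.0291), were less steep, and *Krt5* lost its call without KOF 1, KOM 1 or KOM 2 (adjusted p = 0.0669 to 0.123). Smooth muscle of vessels makes *Acta2*, *Tagln*, *Cnn1* and *Myh11* too, and its part in these values was not tested. Of 8 endothelial genes 6 were higher in KOF, with all 6 still called without those libraries, such as *Pecam1* at −0.70 (adjusted p = 0.00832) and *Emcn* at −1.12 (adjusted p = 0.000992). *Cdh5* lost its call without KOF 1, KOF 2, KOM 1 or WTF 2 (adjusted p = 0.0532 to 0.141) and *Tie1* without KOF 1 (adjusted p = 0.0634). No sex difference on either list was called different between genotypes.

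Among hormone receptors and steroid enzymes, 4 of 15 tested were higher in KOM and 1 was higher in KOF. The first is close to the 23.3% of autosomal genes higher in KOM, and the second is below the 20.3% higher in KOF. Without KOF 3, KOM 2 and WTM 3, 3 of the 4 were still called. *Srd5a3*, 0.41 (adjusted p = 0.0198), was not called there (adjusted p = 0.083) or without KOM 1 or KOM 3 (adjusted p = 0.053 to 0.0638). Nor was it called under upper-quartile scaling (adjusted p = 0.132), without the filter on low counts (adjusted p = 0.0626) or by limma on the deposited normalized values (adjusted p = 0.197). *Fkbp5*, a chaperone of steroid receptors that androgens and glucocorticoids induce, had 644, 925 and 849 in KOF and 5430, 4188 and 7571 in KOM, a log2 fold change of 2.83 (SE 0.23, adjusted p = 1.33e-06), and 2.46 in wild types. *Hsd11b1*, which restores active glucocorticoid, had 622, 1170 and 576 and 2185, 5360 and 5038, a log2 fold change of 2.41 (SE 0.39, adjusted p = 0.000335). The growth hormone receptor *Ghr* was 0.96 (adjusted p = 0.000103) and the prolactin receptor *Prlr* was −0.81 (adjusted p = 0.000293), both with the sexes apart. Of 9 genes of the growth hormone and STAT5 pathway 3 were higher in KOF, 0 were higher in KOM and 6 were not called, beside 20.3% and 23.3% of autosomal genes, with a list median of −0.06. *Stat5a* and *Stat5b*, transcription factors downstream of both receptors, were −0.60 (adjusted p = 0.000798) and −0.54 (adjusted p = 0.000453), and *Cux2*, a target of female growth hormone patterns in liver, was −1.99 (adjusted p = 0.0128) at 13.6 to 35.8 in KOF and 4.69 to 7.26 in KOM, a call lost without KOF 1 or KOM 2 (adjusted p = 0.0524 to 0.0774). Those not called were *Bcl6*, *Socs3*, *Jak2*, *Igf1*, *Socs2* and *Cish*, with log2 fold changes from −0.46 to 0.23. *Nr3c2*, the mineralocorticoid receptor, was not called in knockouts, −0.30 (adjusted p = 0.102), and was higher in WTM, 0.62 (adjusted p = 0.00468), a difference of −0.92 (SE 0.20, adjusted p = 0.00855). The androgen receptor gene lies on the X chromosome and was outside the comparison.

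The 10 protein-coding genes higher in KOM with the smallest adjusted p, apart from genes named by clone, were *Sult1e1*, *Slco3a1*, *Camk2d*, *Galc*, *Serpinb6a*, *Lrp3*, *Man2b1*, *Tgfb2*, *Kcns3* and *Slc41a2*, and in all of them the rule required that the sexes not overlap. *Sult1e1* (ENSMUSG00000029272.9, chromosome 5, 87723828 to 87739461), the sulfotransferase that inactivates estrogens, came first, with 1.15, 0 and 2.48 in KOF and 1486, 919 and 898 in KOM. From 3 counts in KOF and 3563 in KOM the ratio was 991, with a 95% exact counting interval of 339 to 4807 (adjusted p = 6.71e-09). *Kcns3*, a silent subunit of voltage-gated potassium channels, had 6.93, 13.6 and 8.67 in KOF and 582, 616 and 638 in KOM, a log2 fold change of 5.93 (SE 0.29, adjusted p = 4.28e-08). The growth factor *Tgfb2* had 1708, 1937 and 1335 in KOF and 18109, 17994 and 19608 in KOM, a log2 fold change of 3.48 (SE 0.17, adjusted p = 4.28e-08). *Galc* and *Man2b1* are lysosomal enzymes that take sugars off lipids and glycoproteins; *Galc* had 747, 828 and 749.7 in KOF and 5912, 5069 and 5625 in KOM, a log2 fold change of 2.84, and *Man2b1* had 3585, 3833 and 3754 in KOF and 27732, 22139 and 23248 in KOM, a log2 fold change of 2.71. The calcium-dependent kinase *Camk2d* was 3.32, the intracellular protease inhibitor *Serpinb6a* 3.54 and the magnesium transporter *Slc41a2* 3.97. The same 10 genes were higher in WTM. The sex difference was called different between genotypes in 2 of the 10, beside 25.8% of autosomal genes, and was smaller in knockouts in both, for *Slco3a1*, an organic anion transporter, with a difference of −0.52 (SE 0.16, adjusted p = 0.0336), and for *Lrp3*, a receptor of the LDL receptor family, with one of −0.68 (SE 0.17, adjusted p = 0.0164). The call of *Slco3a1* was lost without any one library except KOM 3 and WTM 3 (adjusted p = 0.0544 to 0.113) and that of *Lrp3* without WTF 3 (adjusted p = 0.0542). Neither was called by limma on the deposited normalized values (adjusted p = 0.154 and 0.0764), and *Slco3a1* was not called by DESeq2 (adjusted p = 0.0638), without the filter on low counts (adjusted p = 0.0531) or with library sizes without the 20 most abundant genes (adjusted p = 0.0543). *Lrp3* had 352, 456 and 331 in KOF and 2481, 2227 and 2640 in KOM, against 229 to 265 in WTF and 2351 to 2719 in WTM.

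The 10 protein-coding genes higher in KOF by the same rule were *Slc37a2*, *Klhl33*, *Trim24*, *Mob3b*, *Ttpa*, *Ppm1k*, *Kctd14*, *Lcorl*, *St3gal4* and *Ptn*, and all 10 were also higher in WTF. *Slc37a2* (ENSMUSG00000032122.16, chromosome 9, 37138881 to 37167112), a sugar phosphate exchanger of the endoplasmic reticulum, had 3261, 2759 and 3418 in KOF and 769, 662 and 608 in KOM, a log2 fold change of −2.21 (SE 0.12, adjusted p = 7.92e-08). *St3gal4*, which adds sialic acid to the sugar chains of glycoproteins, had 12132, 10152 and 13236 in KOF and 2501, 2180 and 1532 in KOM, −2.52 on the log2 scale. *Ttpa*, the vitamin E transfer protein, had 1277, 1371 and 1262 in KOF and 275, 329 and 268 in KOM, −2.16. *Trim24*, a cofactor of nuclear receptors, was −1.82, *Mob3b* −2.58 and the transcription factor *Lcorl* −1.34. Of the 10, 5 differed between genotypes, beside 25.8% of autosomal genes. Both sets of 10 were chosen by their adjusted p in knockouts, so their shares and that of all autosomal genes are not like for like. The female excess was smaller in knockouts for *Slc37a2*, with a difference of 0.66 (SE 0.16, adjusted p = 0.0119), for *Ppm1k*, a phosphatase that activates the breakdown of branched-chain amino acids, 0.48 (SE 0.11, adjusted p = 0.0108), and for *Kctd14*, 0.51 (SE 0.14, adjusted p = 0.0216). It was larger for *Klhl33*, −0.91 (SE 0.24, adjusted p = 0.0184), and for *Ptn*, pleiotrophin, a heparin-binding growth factor. *Ptn* had 225, 321 and 249 in KOF and 22.4, 23.4 and 26.3 in KOM, against 139 to 237 in WTF and 33.8 to 46.9 in WTM, a knockout log2 fold change of −3.46 and a difference of −1.17 (SE 0.34, adjusted p = 0.0262). The call of *Ptn* was lost without KOF 2, KOF 3, KOM 2 or WTM 1 (adjusted p = 0.0563 to 0.0766), that of *Klhl33* without KOF 3 or WTM 1 (adjusted p = 0.0544 to 0.0579) and that of *Kctd14* without KOM 2 (adjusted p = 0.0525). The difference of *Ppm1k* turned to −0.15 in limma on the deposited normalized values and was not called there (adjusted p = 0.551), nor were *Ptn* (adjusted p = 0.0766) and *Kctd14* (adjusted p = 0.0636), the last of which was not called under upper-quartile scaling either (adjusted p = 0.0508).

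Tested directly, the sex difference differed between genotypes at an adjusted p under 0.05 in 4455 autosomal genes (25.8%). In 1973 of them (11.4%) the absolute log2 difference was smaller in knockouts and in 2482 (14.4%) it was larger. In 91.6% of the smaller and 92.8% of the larger ones, females differed more between knockout and wild type than males did, beside 73.3% of all autosomal genes. These counts depended on single libraries: the smaller set was 933 without WTM 1, 1209 without WTM 3, 1273 without KOM 3 and 1307 without KOM 2, and the larger set was 1379 without WTM 1, 1597 without WTM 3 and 1615 without KOM 3. Without KOF 3, KOM 2 and WTM 3 together, edgeR called 0 smaller and 2 larger, *Usp2* and *Zfp708*, while 4386 of 17620 autosomal genes had an unadjusted p under 0.05 against 6993 of 17268 with all libraries. DESeq2 called 5205 autosomal genes with all libraries.

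The 6 protein-coding genes with a smaller absolute difference in knockouts and the smallest adjusted p were *Atosa*, *Mup5*, *Tlcd4*, *Kifc2*, *Tmem82* and *Ybx2*. They and the 6 with a larger difference were chosen by this test, and their values describe them. *Atosa* (ENSMUSG00000034858.18, chromosome 9, 74859669 to 74939762) had 1784, 1628 and 1756 in KOF and 2149, 1896 and 2137 in KOM, and 975, 1002 and 973 in WTF and 2627, 2707 and 2530 in WTM. Its male excess was 0.26 in knockouts and 1.41 in wild types, a difference of −1.16 (SE 0.11, adjusted p = 0.00126): KOF stood above WTF and KOM below WTM. *Tlcd4*, a membrane protein with a lipid-sensing domain, had 1293, 1481 and 1519 in KOF and 1076, 1204 and 1085 in KOM, and 3008, 2957 and 3026 in WTF and 903, 1152 and 1060 in WTM, so that its female excess was −0.35 against −1.53. *Kifc2*, a kinesin motor, turned around. It had 592, 434 and 551 in KOF and 283, 279 and 329 in KOM, higher in KOF with a log2 fold change of −0.82 (adjusted p = 0.00576), but 169.8, 117 and 87.4 in WTF and 441, 320.3 and 380.1 in WTM, higher in WTM with one of 1.60 (adjusted p = 8.93e-05). *Tmem82* and *Ybx2*, an RNA-binding protein known from germ cells, had the same reversal of sign, −1.22 and −0.53 in knockouts against 1.81 and 1.88 in wild types, although *Ybx2* was not called in knockouts (adjusted p = 0.0535). Without KOF 3, KOM 2 and WTM 3 the knockout differences of *Kifc2* and *Tmem82* were −0.74 (adjusted p = 0.0925) and −1.03 (adjusted p = 0.0601). Neither was called there.

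The 6 with a larger absolute difference in knockouts were *Coq10b*, *Nos1ap*, *Ranbp17*, *Usp2*, *Prkar2a* and *Nav2*. *Prkar2a* (ENSMUSG00000032601.14, chromosome 9, 108566513 to 108627641), a regulatory subunit of protein kinase A, had 1090, 1161 and 1214 in KOF and 3068, 3093 and 3441 in KOM, and 2119, 1935 and 2030 in WTF and 2730, 3132 and 2969 in WTM; its male excess was 1.47 in knockouts and 0.54 in wild types, a difference of 0.93 (SE 0.12, adjusted p = 0.00267). *Usp2*, a deubiquitinase whose RNA follows the clock, had 599, 526 and 708 in KOF and 1373, 1203 and 1700 in KOM, and 2762 to 3077 in WTF and 2329 to 2695 in WTM, 1.22 (adjusted p = 1.85e-05) in knockouts and −0.24 (adjusted p = 0.169) in wild types. *Coq10b*, a mitochondrial protein that binds coenzyme Q, was higher in KOM, 0.75 (adjusted p = 6.96e-05), and higher in WTF, −0.54 (adjusted p = 0.000773). *Nos1ap*, an adaptor of neuronal nitric oxide synthase, had 720.5, 606 and 662 in KOF and 215, 134 and 153 in KOM with WTF and WTM overlapping, −1.98 (adjusted p = 2.6e-06) in knockouts and 0.10 (adjusted p = 0.671) in wild types. *Ranbp17*, a nuclear transport receptor, and *Nav2*, a cytoskeletal protein, were higher in KOF, −1.81 (adjusted p = 1.52e-05) and −1.03 (adjusted p = 0.00039). In wild types *Ranbp17* was not called, 0.33 (adjusted p = 0.198). *Nav2* turned around and was higher in WTM, 0.81 (adjusted p = 0.00252). Across both genotypes 508 autosomal genes were called with opposite signs, 330 of them higher in KOF and in WTM, and 178 higher in KOM and in WTF.

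**Figure D5:**
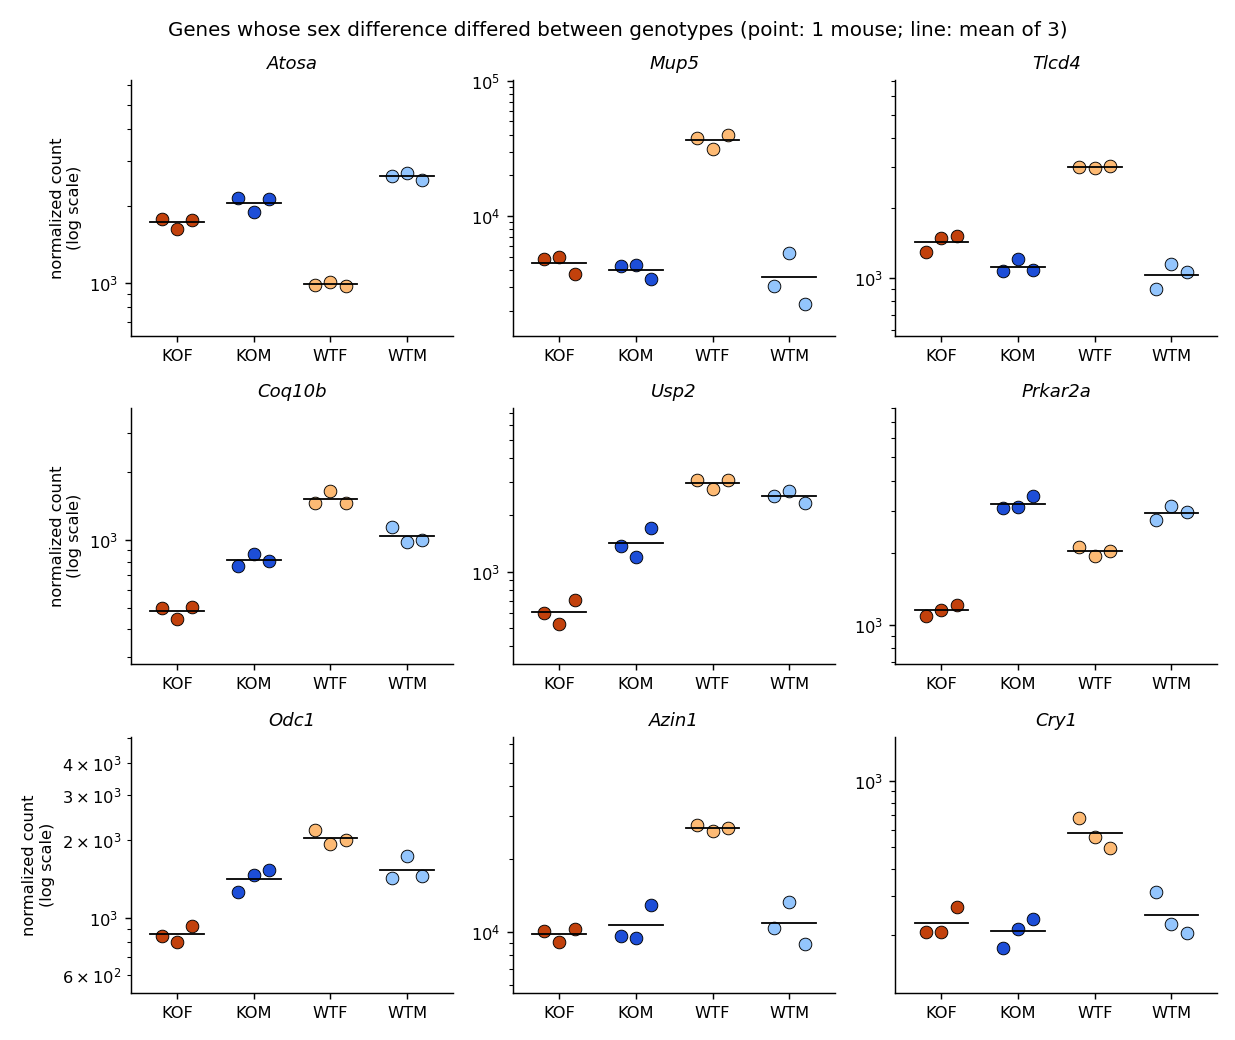
Normalized counts (log axis) of 9 genes whose sex difference differed between genotypes, in each of the 12 libraries; each point is 1 mouse and the line is the mean of 3. For Mup5, Tlcd4, Azin1 and Cry1 the wild-type females stand apart from the other 3 groups, and for Coq10b, Odc1 and Prkar2a the knockout females are the lowest group.

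In the polyamine pathway, whose products growing and secreting cells need, the sex difference differed between genotypes in 5 of 9 genes, beside 25.8% of autosomal genes. Ornithine decarboxylase, *Odc1*, its rate-limiting enzyme, had 851, 803 and 924 in KOF and 1253, 1467 and 1524 in KOM, and 2180, 1936 and 2001 in WTF and 1424, 1733 and 1448 in WTM. It was higher in KOM by 0.72 (adjusted p = 0.000181) and higher in WTF, −0.41 (adjusted p = 0.00883), a difference of 1.13 (SE 0.15, adjusted p = 0.00267). *Azin1*, which shields ornithine decarboxylase from its antizyme, had 10101, 9053 and 10266 in KOF and 9594, 9438 and 12850 in KOM and 26217 to 27589 in WTF, so that its wild-type difference of −1.31 was 0.12 in knockouts, a difference of 1.43 (SE 0.23, adjusted p = 0.00359). The antizyme *Oaz1* was 0.74 (adjusted p = 9.06e-05) in knockouts and 0.06 (adjusted p = 0.65) in wild types, a difference of 0.68 (SE 0.14, adjusted p = 0.00722). *Amd1* and *Srm*, which make decarboxylated S-adenosylmethionine and spermidine, differed by 0.91 (SE 0.15, adjusted p = 0.0037) and 1.01 (SE 0.19, adjusted p = 0.00511) and were higher in WTF but not called in knockouts. *Smox*, spermine oxidase, was higher in males of both genotypes, 0.99 and 0.72. The differences of these 5 genes without KOF 3, KOM 2 and WTM 3 ran from 0.60 to 1.42, with adjusted p from 0.0757 to 0.111.

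Of 16 clock genes, 7 were called higher in KOF, 1 was called higher in KOM and 8 were not called, beside 20.3% and 23.3% of autosomal genes. Of the 7, 4 were still called without KOF 3, KOM 2 and WTM 3. With 1 library left out, *Tef* lost its call without any one of 7 libraries (adjusted p = 0.0553 to 0.204), *Npas2* of 5 (adjusted p = 0.0541 to 0.175), *Hlf* of 2 (adjusted p = 0.0792 to 0.153) and *Per1* of 1, KOF 1 (adjusted p = 0.0569). *Dbp*, an output of the clock, had 894, 684 and 1066 in KOF and 344, 236 and 279 in KOM, a log2 fold change of −1.62 (SE 0.18, adjusted p = 1.91e-05), and *Nr1d1*, a repressor within the clock, was −0.71 (adjusted p = 0.00225); both were higher in WTF too, −1.02 and −0.57. The sex difference differed between genotypes in 3 of the 16, below the 25.8% of all autosomal genes: for *Per3*, −1.14 (SE 0.28, adjusted p = 0.0125), for *Cry1*, 1.10 (SE 0.27, adjusted p = 0.0132), and for *Bhlhe41*, 1.00 (SE 0.15, adjusted p = 0.00312). *Cry1* had 206, 206 and 269 in KOF and 174, 212 and 235 in KOM, and 497 to 679 in WTF and 203 to 312 in WTM. The core gene *Bmal1* did not differ detectably between the sexes in knockouts, −0.09 (adjusted p = 0.719), although its level was 446 to 619 in KOF and 417 to 654 in KOM against 43.8 to 59.7 in WTF and 64.6 to 74.7 in WTM. The hours at which the glands were taken are not given in the sources used here, and their part in these differences was not tested.

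Some markers of other cells were also called different between KOM and KOF. In the summed levels of the adipocyte, macrophage and fibroblast lists, KOM 1 lay within the range of KOF. Of 8 adipocyte genes 5 were called higher in KOM, 0 higher in KOF and 5 higher in WTF, beside 23.3% and 20.3% of autosomal genes in knockouts and 15.7% higher in WTF, with medians of 3.05 in knockouts and −3.53 in wild types. The sex difference was called different between genotypes in 6 of the 8, against 25.8% of autosomal genes. The summed level was 302 to 441 in KOF, 312 to 2526 in KOM, 327 to 3008 in WTF and 278 to 299 in WTM. *Adipoq*, the fat cell hormone adiponectin, had 10.4, 34 and 2.48 in KOF and 17.7, 294 and 167 in KOM, high in KOM 2 and KOM 3 but not in KOM 1, and among wild types WTF 3 held 393. Its knockout call was lost without any one of 7 libraries, KOF 1, KOF 3, KOM 2, KOM 3 or any WTM (adjusted p = 0.0525 to 0.144). Of the 5, edgeR called 0 without KOF 3, KOM 2 and WTM 3 together (adjusted p = 0.179 to 0.333), with 0 of them at an unadjusted p under 0.05 and log2 fold changes of 1.15 to 2.94 beside 1.41 to 4.05 with all libraries.

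Of 9 macrophage genes 4 were called higher in KOM, 0 higher in KOF and 6 higher in WTF, beside 23.3%, 20.3% and 15.7% of autosomal genes, with medians of 0.60 in knockouts and −0.77 in wild types, and the sex difference was called different between genotypes in 6 of the 9, against 25.8%. The summed level was 5427 to 8812 in KOF, 7302 to 13940 in KOM, 6353 to 17771 in WTF and 5489 to 6473 in WTM. Among wild types WTF 1 stood apart, with 17771 against 6353 and 9189 in WTF 2 and WTF 3. For *Adgre1* these libraries had 2510, 370 and 517. *Cd163*, a scavenger receptor of macrophages, had 193, 280.4 and 279 in KOF and 331, 943 and 950.5 in KOM, with KOM 1 nearer to the females. Of these 4, edgeR called 0 without KOF 3, KOM 2 and WTM 3 (adjusted p = 0.0523 to 0.306), with 2 at an unadjusted p under 0.05 and log2 fold changes of 0.46 to 1.44 beside 0.60 to 1.56. Of 7 fibroblast genes, against the same shares, 4 were called higher in KOM and 0 higher in KOF, such as *Pdgfra* at 1.07 (adjusted p = 0.00231), and 1 differed between genotypes. Of these 4 too edgeR called 0 without the 3 libraries (adjusted p = 0.0598 to 0.226), with 3 at an unadjusted p under 0.05 and log2 fold changes of 0.50 to 0.83 beside 0.79 to 1.07.

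Haemoglobin genes summed to 10.4 to 14.6 in KOF and 54.1 to 177 in KOM. Of 11 immediate early genes, which respond to handling of tissue, 9 were called higher in KOM and *Nr4a1* was called higher in KOF, beside 23.3% and 20.3% of autosomal genes, and 5 of the 9 were still called without KOF 3, KOM 2 and WTM 3. *Fos* had 111, 796 and 113 in KOM against 43.9 to 73.7 in KOF, and was not called without KOM 2 (adjusted p = 0.129). *Ier2* lost its call without any one of 6 libraries (adjusted p = 0.0502 to 0.116), *Egr3* of 3 (adjusted p = 0.0542 to 0.101), *Fosb* of 2 (adjusted p = 0.0507 to 0.0879) and *Junb* of 1, KOM 2 (adjusted p = 0.07). Of 10 lymphocyte and plasma cell genes 2 passed the filter on low counts, and neither was called. Of 9 skeletal muscle genes 2 passed it and were called in opposite directions, while the muscle myosin *Myh4* had 0 counts in each knockout library. Skeletal muscle actin, *Acta1*, had 1 count in all KOF together and 282 in KOM, normalized counts of 106, 66.5 and 88.1, a ratio of 235 with a 95% exact counting interval of 41.9 to 9325 (adjusted p = 3.43e-05), and it was higher in WTM too (adjusted p = 0.000277). Muscle creatine kinase, *Ckm*, was higher in KOF, with 57.7, 60.2 and 64.4 against 28, 19.7 and 31.8 in KOM, −1.19 (adjusted p = 0.0142), a call lost without KOF 3 or KOM 2 (adjusted p = 0.0523 to 0.0611) and without KOF 3, KOM 2 and WTM 3 (adjusted p = 0.082). The part of fat, blood, stroma, muscle and immune cells in the results above was not tested.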

How the data were processed

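Whole submandibular glands of 12 mice were sequenced, and 2 tables were used. In the first, the authors had estimated counts per gene with Salmon 1.10.1, which divides reads between similar transcripts, so that some values were not whole numbers. The second holds a deposited signal, the same estimated counts divided by a normalization factor for each gene and library by the authors, and served only as an alternative. How those factors were made is not given in the sources used here. Of 56065 gene IDs, 55563 matched Gencode M39 (GRCm39) and 51703 were autosomal. Estimated counts were rounded and tested with edgeR 4.0.16 (R 4.3.3): TMM scaling, filterByExpr, a quasi-likelihood fit of 4 group means over all 12 libraries, and Benjamini-Hochberg adjustment over 17893 genes, of which 625 were not autosomal. The contrasts were KOM against KOF, WTM against WTF, and the difference between them. A sex difference was called past both thresholds at an adjusted p under 0.05 and an absolute log2 fold change above 1; list members and differences between genotypes needed the adjusted p only. Positive log2 values mean higher in males, and printed normalized counts are scaled by TMM. Tests were tried on simulated data first. Totals of 47031917 to 67881902 counts per library set the counting precision. Replicates are separate mice by label. The alternatives were RLE and upper-quartile scaling, library sizes without the 20 most abundant genes, a minimum of 10 counts in every library, no filter, DESeq2 1.42.0, limma 3.58.1 on log2(deposited value + 1), a fit within each genotype, a replicate block, and each library left out in turn. Genes were named by rule: *Egf*, *Klk1b26* and *Mucl2*; the 10 protein-coding autosomal genes per direction with the smallest adjusted p among those past both thresholds without overlap of libraries; the 6 per direction with the smallest adjusted p for the difference between genotypes, ties broken by unadjusted p; and members of the 20 lists. Genes named by clone were passed over, and some list members are not reported here. Members and lists were chosen with earlier results of these data known. Start regions are RefSeq sequences of GRCm38.p6, aligned with Biopython 1.88, and gene positions are those of GRCm39.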

Additional observations from a re-analysis of the deposited data

Results flagged for a closer look

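The sex difference of 49 of the named genes and list members differed between genotypes (edgeR's test of the difference, adjusted p under 0.05). The values below are the log2 sex difference of knockouts minus that of wild types. Among the genes named for their sex difference in knockouts these were −0.52 for *Slco3a1*, −0.68 for *Lrp3*, 0.66 for *Slc37a2*, −0.91 for *Klhl33*, 0.48 for *Ppm1k*, 0.51 for *Kctd14* and −1.17 for *Ptn*. Among genes named for a smaller difference in knockouts they were −1.16 for *Atosa*, 3.19 for *Mup5*, 1.18 for *Tlcd4*, −2.42 for *Kifc2*, −3.04 for *Tmem82* and −2.41 for *Ybx2*. Among those named for a larger one they were 1.29 for *Coq10b*, −2.08 for *Nos1ap*, −2.14 for *Ranbp17*, 1.47 for *Usp2*, 0.93 for *Prkar2a* and −1.84 for *Nav2*. These 12 genes were chosen by this test, so their values are a description.

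In the gland and hormone lists the differences were −0.61 for *Kcnma1*, 0.72 for *Xbp1*, −0.61 for *Slc4a2* and −0.92 for *Nr3c2*. *Mup4* had −10.79, a value that depends on the prior count of the fit because every WTF library had 0 counts, and KOF 3 alone held the knockout females' counts. In the polyamine and clock lists they were 1.13 for *Odc1*, 1.43 for *Azin1*, 0.68 for *Oaz1*, 0.91 for *Amd1*, 1.01 for *Srm*, −1.14 for *Per3*, 1.10 for *Cry1* and 1.00 for *Bhlhe41*. In the lists of other cells they were 2.33 for *Adgre1*, 1.57 for *Cd163*, 1.47 for *C1qa*, 1.49 for *C1qb*, 1.34 for *C1qc* and 2.16 for *Lyz2* among macrophage genes, 1.78 for the fibroblast gene *Dpt* and 3.82 for the haemoglobin gene *Hbb-bs*. Among adipocyte genes they were 8.5 for *Adipoq*, 8.55 for *Plin1*, 8.97 for *Cidec*, 4.12 for *Lep*, 4.5 for *Fabp4* and 7.32 for *Retn*. Without WTF 3 or WTM 1 that of *Retn* was 4.17 to 7.04 (adjusted p = 0.0529 to 0.113). Among immediate early genes the differences were 3.65 for *Fosb*, 0.97 for *Junb* and 2.2 for *Egr2*. Of all 49, only *Usp2* was still called without KOF 3, KOM 2 and WTM 3, a fit with fewer mice in those groups. The lowest adjusted p among the others there was 0.0515, for *Atosa* and *Mup5*, with differences of −1.11 and 2.77. That of *Mup4* was −0.33. A lost call in this smaller fit does not show that a difference was absent. With 1 library left out at a time, 18 of the 49 lost the call in at least 1 case: *Fosb*, *Kcnma1* and *Slco3a1* without any one of 10 libraries, *Cd163*, *Egr2* and *Mup4* of 9, *Adgre1*, *Lep* and *Slc4a2* of 6, *C1qc* of 5, *Ptn* of 4, *Lyz2* of 3, *Junb*, *Klhl33*, *Retn* and *Xbp1* of 2, and *Kctd14* and *Lrp3* of 1.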

How the results depend on the processing

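Of the results on single genes and lists, 5123 values over the 22 alternatives kept their direction and their side of the threshold, or for a list's median moved by under 0.25, 346 lost the call, 80 gained it and 6 turned around. A further 78 values of genes without a call changed sign, and 54 list medians moved by 0.25 or more. Genes higher in KOF numbered 1086 with at least 10 counts in every library, and genes higher in WTM 999, beside 1661 and 1543. Without KOF 3, KOM 2 and WTM 3 together, chosen after seeing the data, genes higher in KOF numbered 936, acinar members higher in KOF 6 of 13, and differences between genotypes 0 smaller and 2 larger. With 1 library left out at a time, genes higher in KOM ranged from 1192 to 1537, in KOF from 1167 to 1690, in WTM from 1283 to 1730 and in WTF from 716 to 997. Tubule and pheromone members called ranged from 18 to 19 and acinar members from 10 to 15. Smaller differences ranged from 933 to 2622 and larger ones from 1379 to 3007, with both lowest without WTM 1. Upper-quartile scaling moved the median of all autosomal genes by −0.16 and gave 971 and 2245 knockout genes, 30.2% of them higher in KOM. The log2 sex difference of *Smr3a* in knockouts turned to −2.36 without the 3 libraries and ranged from −1.97 (without KOM 2) to 17.03 with 1 library left out. That of *Dnase1* turned to −0.11 and ranged from −0.25 (without KOM 2) to 4.79, and that of *Mup4* turned to 6.88 without the 3 libraries, where it was called higher in KOM (adjusted p = 0.0116), and ranged from −2.09 to 6.61 (without KOF 3). The difference between genotypes of *Ppm1k* turned to −0.15 in limma on the deposited normalized values and ranged from 0.43 to 0.59 with 1 library left out. The causes were not tested.

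Replicate numbers are shared between groups. Deviations of same-numbered libraries correlated by 0.07, 0.09 and −0.04 in knockouts and 0.27, −0.06 and −0.007 in wild types. Those of differently numbered libraries ran from −0.12 to 0.05 in knockouts and from −0.28 to 0.27 in wild types. With 3 mice a group these values cannot show whether same-numbered mice were paired. With a replicate block the counts were 1269 and 1646 in knockouts, 1508 and 857 in wild types, 1861 smaller and 2343 larger differences, 19 tubule and pheromone members and 13 acinar members. Groups of 3 mice and single genes with under 3 counts limit what could be detected.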
